A study of Homo sapiens with 3 samples.

Results

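The 37 genes described here belong to the antioxidant programme of the transcription factor NRF2 (NFE2L2) and to the glutathione, thioredoxin and iron-storage systems. They were taken by symbol from a count table of 19220 genes, and all 37 were found. Ratios were taken for genes whose counts averaged 10 or more across the libraries, and 36 of the 37 qualified. The gene left out, MGST1, a membrane-bound glutathione transferase, had 1 count in the parental line, 2 in CAL27/5FU and 0 in CAL27/OXA, and a count of 0 allows up to 3 counts.

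CAL27 is a human oral squamous cell carcinoma line, and the parental cells, labelled WT, were grown without drug. CAL27/5FU cells are a derivative resistant to 5-fluorouracil (5FU), a pyrimidine analogue, obtained by raising the drug step by step and then kept in 10 μM 5FU. CAL27/OXA cells are a derivative resistant to oxaliplatin (OXA), a platinum drug, and were kept in 10 μM OXA. Whether either resistant line was grown from a single clone is not stated, and drug in the medium and lasting resistance cannot be told apart. RNA-seq of 1 labelled library per line was used. The tables hold a further column named for each line that matches no labelled sample and was left out, so the spread between samples of a line was not measured here and no p-value is given.

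NRF2 is held in the cytoplasm and marked for degradation by KEAP1, an adaptor of a ubiquitin ligase that senses oxidants and electrophiles. When KEAP1 is modified, NRF2 enters the nucleus, pairs with small MAF proteins and binds antioxidant response elements near genes for glutathione synthesis, thioredoxin reduction, NADPH supply and detoxification. Ferritin, a shell of FTH1 (heavy chain) and FTL (light chain), stores iron in a form that does not drive peroxidation, and its translation is also set by cellular iron. In squamous carcinomas this programme is known for its link to survival of oxidative and drug stress.

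The 3 libraries held 37297713 to 43455488 counts over all genes. Counts were scaled with TMM factors of 0.932 to 1.05 and are given as CPM, the count relative to the scaled size of the library. FPKM, the authors' value per unit of gene length and of library size, is used wherever genes are set beside each other. A gene is called higher or lower past 2-fold, a log2 ratio beyond 1 in size. The interval in brackets after a ratio is the exact 95% Clopper-Pearson interval from the 2 counts, which covers counting error only and not the spread between cultures. Ratios of single genes carry a prior count of 2, which pulls those of low genes towards 0, and the intervals carry none. All 10 squamous epithelial markers checked had counts in every library, but their summed level was 15598 CPM in the parental line, 3852 in CAL27/5FU and 5851 in CAL27/OXA. Keratins made up most of that sum in the parental line. Their share was smaller in both resistant lines, and in CAL27/OXA the other markers together held more than the keratins. In CAL27/5FU all of the 10 but CDH1 and EPCAM were past 2-fold lower, while in CAL27/OXA this held for KRT5, KRT6A, KRT14, KRT17 and DSG3 and the others, TP63, SFN, S100A2, CDH1 and EPCAM, had log2 ratios between -0.16 and 0.13. Of the markers of other cell types, 4 of 5 for fibroblasts and 3 of 3 for endothelium had over 3 counts in every library. Their summed levels were 41.9, 46.9 and 49.9 CPM for fibroblasts and 2.57, 9.27 and 4.57 for endothelium, in the order CAL27, CAL27/5FU, CAL27/OXA. COL3A1 and the blood cell marker PTPRC were at 0 to 2 counts. Within a list the markers differed in direction. LUM had 120, 414 and 877 counts, COL1A2 90, 300 and 212, PDGFRB 35, 55 and 76, and COL1A1 1387, 1068 and 1050. CDH5 had 43, 338 and 163 counts, while VWF had 44, 19 and 29 and PECAM1 had 13, 6 and 11. Of the endothelial sum, CDH5 alone had 1.10, 8.64 and 3.67 CPM. CD14, a monocyte marker, had 637, 1290 and 341 counts. The part of these markers in the results was not tested.

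The element bound by NRF2 was searched for as TGACNNNGC on both strands, in RefSeq promoters (GRCh38.p14) of 250 bases before to 50 after the start. Of the 28 members with a listed promoter, 10 (35.7%) held it, against 18 of 73 other genes of the same pathways (24.7%) and 16.1% of all 27305 genes in the promoter table. Among tested genes alone, 9 of 27 members (33.3%) held it, against 19.2% of all 10648 with a listed promoter. HMOX1, SLC7A11, GSS, GSR, PRDX1, PRDX6, CBR3, AKR1B10 and FTH1 have no entry. The sequences below are shown because 5 members with a match of this pattern before a start had unlike ratios. GPX2 is the single member with a match that was called against CAL27, and the other 4 were chosen after their values were seen. Each is read 5′ to 3′ on the strand of its gene, with 10 bases on either side, and capitals mark the match.
GPX2 (chr14:64942849-64942877, minus strand): acctgtttttGCTAAGTCAtcctggggat
GSTP1 (chr11:67583736-67583764, plus strand): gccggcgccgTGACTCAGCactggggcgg
GCLM (chr1:93909446-93909474, minus strand): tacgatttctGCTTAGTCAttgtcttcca
TXNRD1 (chr12:104286920-104286948, plus strand): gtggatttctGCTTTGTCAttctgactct
GSTO1 (chr10:104254721-104254749, plus strand): cgagatgcttTGACACAGCcccttaagat
In GPX2, GCLM and TXNRD1 the match is on the reverse strand and reads GCNNNGTCA. The match begins 122 bases before the start in GPX2, 66 in GSTP1, 34 in GCLM, 102 before one of the TXNRD1 starts and 161 in GSTO1, which has another match 226 bases before its start. Another TXNRD1 start has matches that begin 99 and 8 bases before it. KEAP1, CBR1, ME1 and PGD also had a match before a start and are not shown. Their log2 ratios to CAL27 lay between -0.36 and 0.18. The 9 tested members with a match had a median log2 ratio to CAL27 of -0.11 in CAL27/5FU and -0.11 in CAL27/OXA, and the 18 with a promoter and no match had -0.20 and 0.15. A match gives letters only and is not evidence of binding. A promoter without a match may have an element outside the bases searched, so the members without one are not thereby shown to lack it.

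By FPKM, FTH1 was the highest member in every library. With FTL it had 4830 of the 9018 FPKM summed over the members in the parental library, 7074 of 10660 in CAL27/5FU and 3353 of 7592 in CAL27/OXA. FTH1 had 3568 FPKM in the parental line, 5508 in CAL27/5FU and 1851 in CAL27/OXA, and it ranked 2, 1 and 9 among all genes of these libraries. FTL and GSTP1, the abundant cytosolic glutathione transferase, were the next members in each library, with 1263 to 1566 FPKM for FTL and 894 to 1462 for GSTP1. PRDX1, a peroxiredoxin, and TXN, thioredoxin itself, lay between 414 and 574 FPKM. At the other end, GPX2, GPX3, GSTM2 and AKR1B10 stayed below 5 FPKM in every library, and these 4 genes account for 6 of the 8 calls made against CAL27. The members together took 1.16% of all counts in the parental line, 1.40% in CAL27/5FU and 1.02% in CAL27/OXA. FTH1 and FTL are included in these shares and by themselves took 0.549%, 0.814% and 0.358%, so the order of the shares is not that of the other members.

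**Figure D1:**
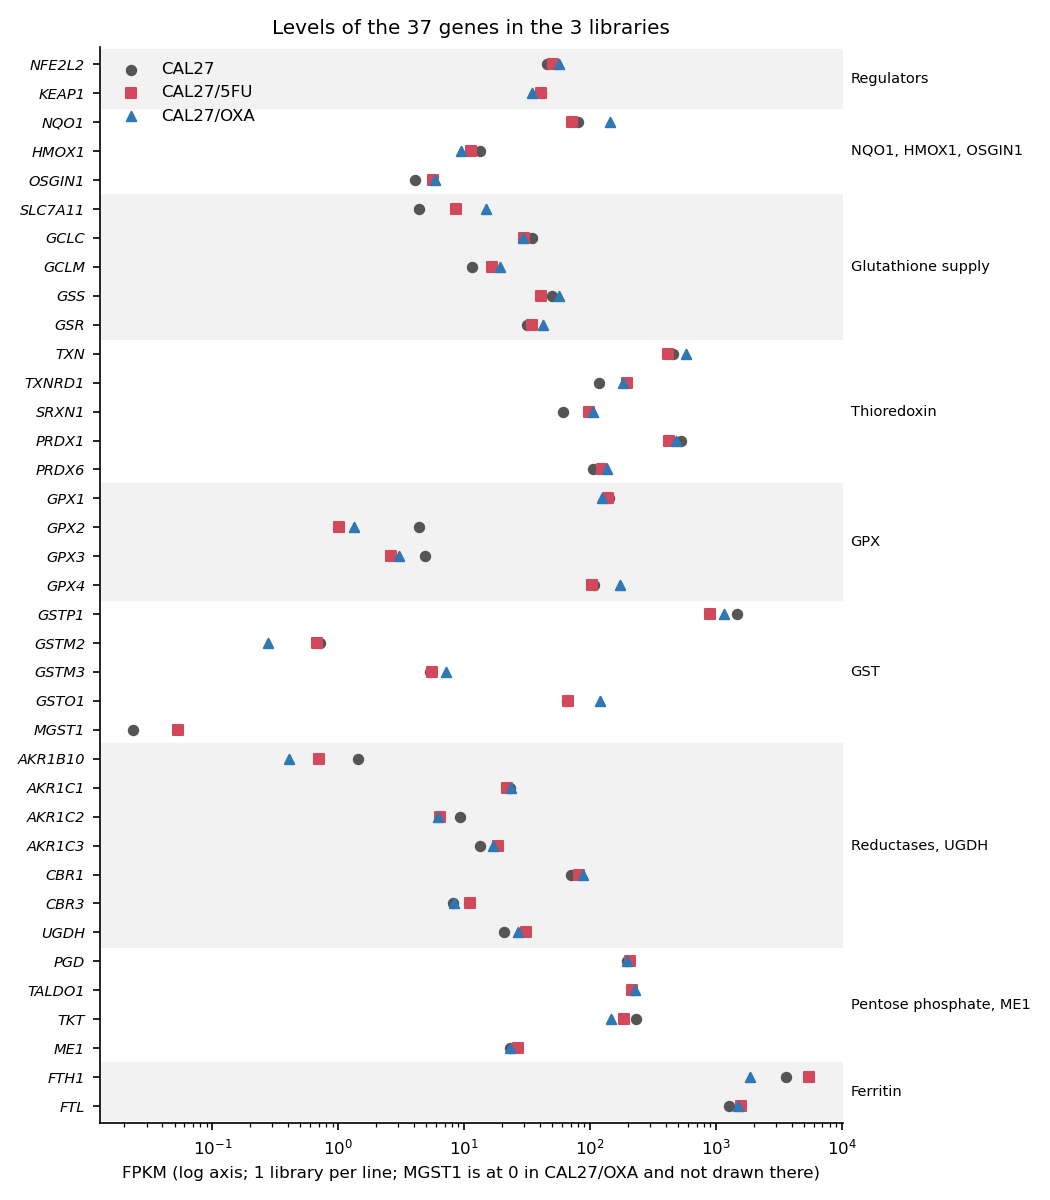
FPKM of the 37 genes (log axis) in the 3 libraries, 1 point per library, with genes grouped by role. FTH1 is the highest member in each library and is lowest in CAL27/OXA at 1851 FPKM, and MGST1 lies far below the rest.

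Against CAL27, 0 of the 36 tested members were called higher in CAL27/5FU and 3 (8.33%) were called lower. Over all 13676 tested genes, 8.46% were called higher and 6.72% lower. In CAL27/OXA cells 1 member (2.78%) was called higher and 4 (11.1%) lower, against 6.54% and 9.28% of all tested genes. The median log2 ratio of the members was -0.16 in CAL27/5FU and -0.0044 in CAL27/OXA, beside -0.0035 and 0.0055 for all tested genes. The shares of lower members were near the background, and most members, 33 in CAL27/5FU and 31 in CAL27/OXA, were within 2-fold. Scaling by total counts moved the median of all genes to 0.17 in CAL27/5FU and 0.14 in CAL27/OXA. Under that scaling the ratios of NFE2L2, KEAP1, GSR, GSTM3, GSTO1, PGD and TALDO1 in CAL27/5FU, and of AKR1C1, CBR3, TALDO1 and ME1 in CAL27/OXA, changed from negative to positive. The 2 comparisons share the CAL27 library, so agreement between them is not independent.

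**Figure D2:**
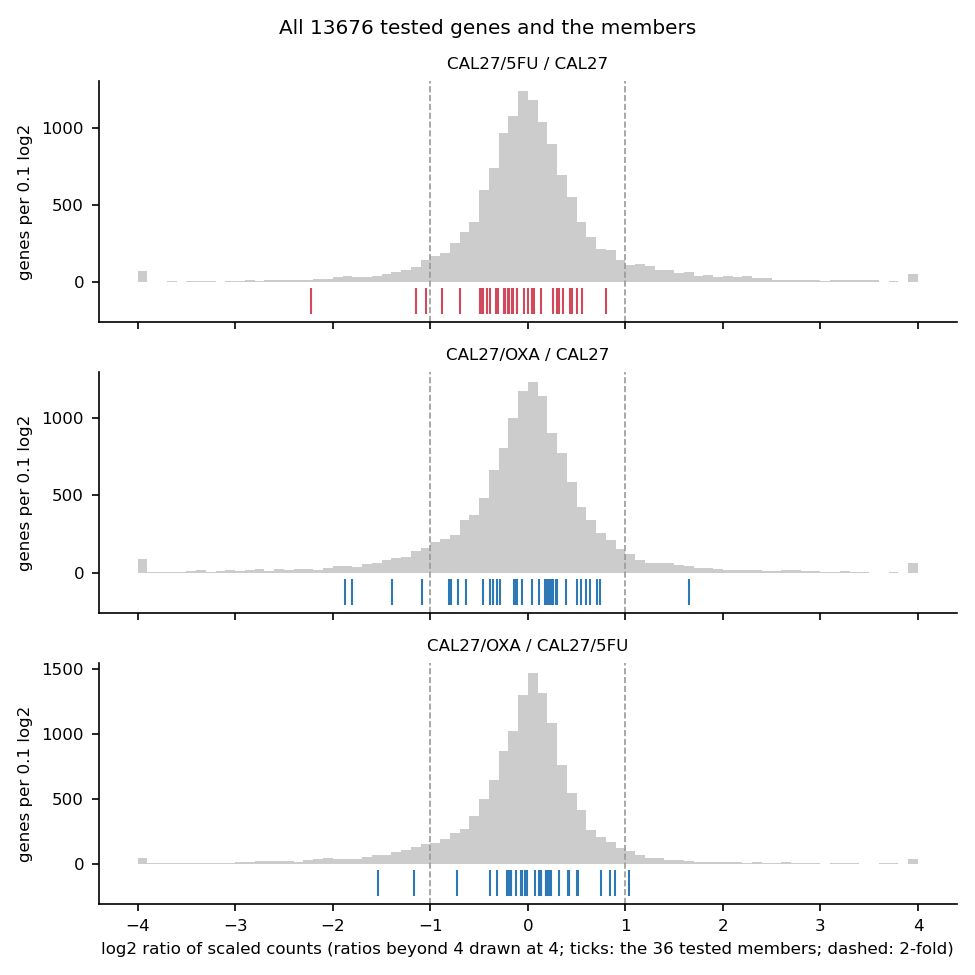
Log2 ratios of all 13676 tested genes (grey, genes per bin of 0.1) with the 36 tested members as ticks, for each pair of lines. The members spread across the same central range as all genes, with 3 beyond the lower 2-fold line in CAL27/5FU, and 4 below and 1 above in CAL27/OXA.

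Of the regulators, NFE2L2 had 139 CPM in the parental line, 139 in CAL27/5FU and 158 in CAL27/OXA. KEAP1 had 112, 99.7 and 87.0 CPM, with log2 ratios of -0.16 (-0.23 to -0.10) and -0.36 (-0.42 to -0.30). Neither was past 2-fold in a resistant line. Per length, KEAP1 stood at 0.892 of the NFE2L2 level in the parental line, 0.798 in CAL27/5FU and 0.612 in CAL27/OXA. Exons of NFE2L2 overlap those of AGPS on the opposite strand in GENCODE 29, and AGPS had 4686, 5395 and 6205 counts.

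NQO1 (chromosome 16, 69706996 to 69726951, minus strand) encodes the quinone reductase that is often read as a marker of NRF2 activity. It had 8282 counts in the parental line, 6632 in CAL27/5FU and 15458 in CAL27/OXA, or 213, 169 and 348 CPM. The CAL27/OXA library was thus the highest and the CAL27/5FU library the lowest. Against CAL27 the log2 ratios were -0.33 (-0.37 to -0.28) and 0.71 (0.67 to 0.75), and CAL27/OXA was 2.05-fold above CAL27/5FU, a log2 ratio of 1.04 (1.00 to 1.08) that was 0.99 to 1.00 with FPKM values, just within 2-fold. HMOX1, heme oxygenase, had 22.8, 17.1 and 14.7 CPM, with log2 ratios of -0.42 (-0.56 to -0.27) and -0.63 (-0.78 to -0.49). OSGIN1, an oxidative stress-induced growth inhibitor, had 8.40, 10.5 and 11.0 CPM, with log2 ratios of 0.32 (0.11 to 0.53) and 0.39 (0.19 to 0.60). The 3 genes, all known NRF2 targets, therefore gave 3 different orders of the libraries. For OSGIN1 the interval of the resistant lines against each other reached across 0 (-0.12 to 0.27), so their order is not settled by the counts.

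SLC7A11 (chromosome 4, 138164097 to 138242349, minus strand) is the cystine-glutamate exchanger subunit that brings in cystine for glutathione. It had 1748 counts in the parental line, 3073 in CAL27/5FU and 6260 in CAL27/OXA, or 44.9, 78.5 and 141 CPM. In CAL27/OXA it rose 3.14-fold, a log2 ratio of 1.65 (1.57 to 1.73), and it was the only member called higher against CAL27. In CAL27/5FU the log2 ratio was 0.81 (0.72 to 0.89), which is under 2-fold. The 10 nearest tested genes, 5 on each side, had a median log2 ratio of 0.22 in CAL27/5FU and 0.48 in CAL27/OXA, where 2 of them were called higher.

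The genes of glutathione synthesis did not share one direction. GCLC, the catalytic subunit of glutamate-cysteine ligase, had 140.5 CPM in CAL27 and 107 in both resistant libraries, a log2 ratio of -0.39 in each. GCLM, the modifier subunit of the same enzyme, had 62.1, 80.0 and 93.8 CPM, with log2 ratios of 0.36 (0.29 to 0.44) and 0.59 (0.52 to 0.67). Per length, the level of GCLC was 3.02 times that of GCLM in CAL27, 1.79 times in CAL27/5FU and 1.52 times in CAL27/OXA. GSS, glutathione synthetase, had 119, 86.4 and 123 CPM, lowest in CAL27/5FU at a log2 ratio of -0.46 (-0.53 to -0.40). GSR, the NADPH-dependent reductase that regenerates glutathione, had 103, 100.5 and 126 CPM, with log2 ratios of -0.04 and 0.29. None of GCLC, GCLM, GSS and GSR was past 2-fold.

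In the thioredoxin system all 5 members were within 2-fold in both resistant lines. TXNRD1, the selenoprotein that reduces thioredoxin, had 505.5 CPM in the parental line, 745 in CAL27/5FU and 716 in CAL27/OXA, with log2 ratios of 0.56 (0.53 to 0.59) and 0.50 (0.48 to 0.53). SRXN1, sulfiredoxin, which restores over-oxidized peroxiredoxins, had 177, 251 and 276 CPM, with log2 ratios of 0.50 and 0.64. Both were lowest in CAL27. TXN had 408, 331 and 470.5 CPM, with log2 ratios of -0.30 and 0.21. PRDX1 had 638, 454 and 524 CPM, with log2 ratios of -0.49 and -0.28, and PRDX6 had log2 ratios of 0.05 and 0.24. Exons of SRXN1 overlap those of AL121758.1 on the same strand. Of the 31-base windows of the SRXN1 transcript, 84.9% are found in that gene too.

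Of the 4 glutathione peroxidases, which reduce hydrogen peroxide and lipid peroxides, GPX2 and GPX3 were called lower in CAL27/5FU, and GPX2 alone in CAL27/OXA. GPX2 (chromosome 14, 64939152 to 64942905, minus strand), the epithelial and gastrointestinal isoenzyme whose promoter is shown above, had 198 counts in the parental line, 41 in CAL27/5FU and 63 in CAL27/OXA. It fell 4.68-fold in CAL27/5FU, a log2 ratio of -2.23 (-2.80 to -1.79), and 3.50-fold in CAL27/OXA, a log2 ratio of -1.81 (-2.27 to -1.43). Both resistant libraries lay below CAL27, and the interval of the resistant lines against each other reached across 0 (-0.15 to 1.04). Its 10 nearest tested genes had median log2 ratios of -0.02 and -0.19, with 0 of them called.

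GPX3 (chromosome 5, 151020438 to 151028993, plus strand), the secreted isoenzyme, had 366, 177 and 238 counts. It fell 2.07-fold in CAL27/5FU, a log2 ratio of -1.05 (-1.32 to -0.79) that lay within 2-fold under total counts and with FPKM values. In CAL27/OXA its log2 ratio was -0.80 (-1.05 to -0.57). GPX1, the ubiquitous cytosolic isoenzyme, had 183, 160 and 147 CPM, with log2 ratios of -0.19 and -0.32. GPX4, which reduces phospholipid hydroperoxides and is known for its role against ferroptosis, had 117, 101 and 171 CPM, with log2 ratios of -0.21 (-0.27 to -0.14) and 0.55 (0.49 to 0.60). GPX4 was therefore highest in CAL27/OXA, where the other 3 peroxidases were below their CAL27 level.

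**Figure D3:**
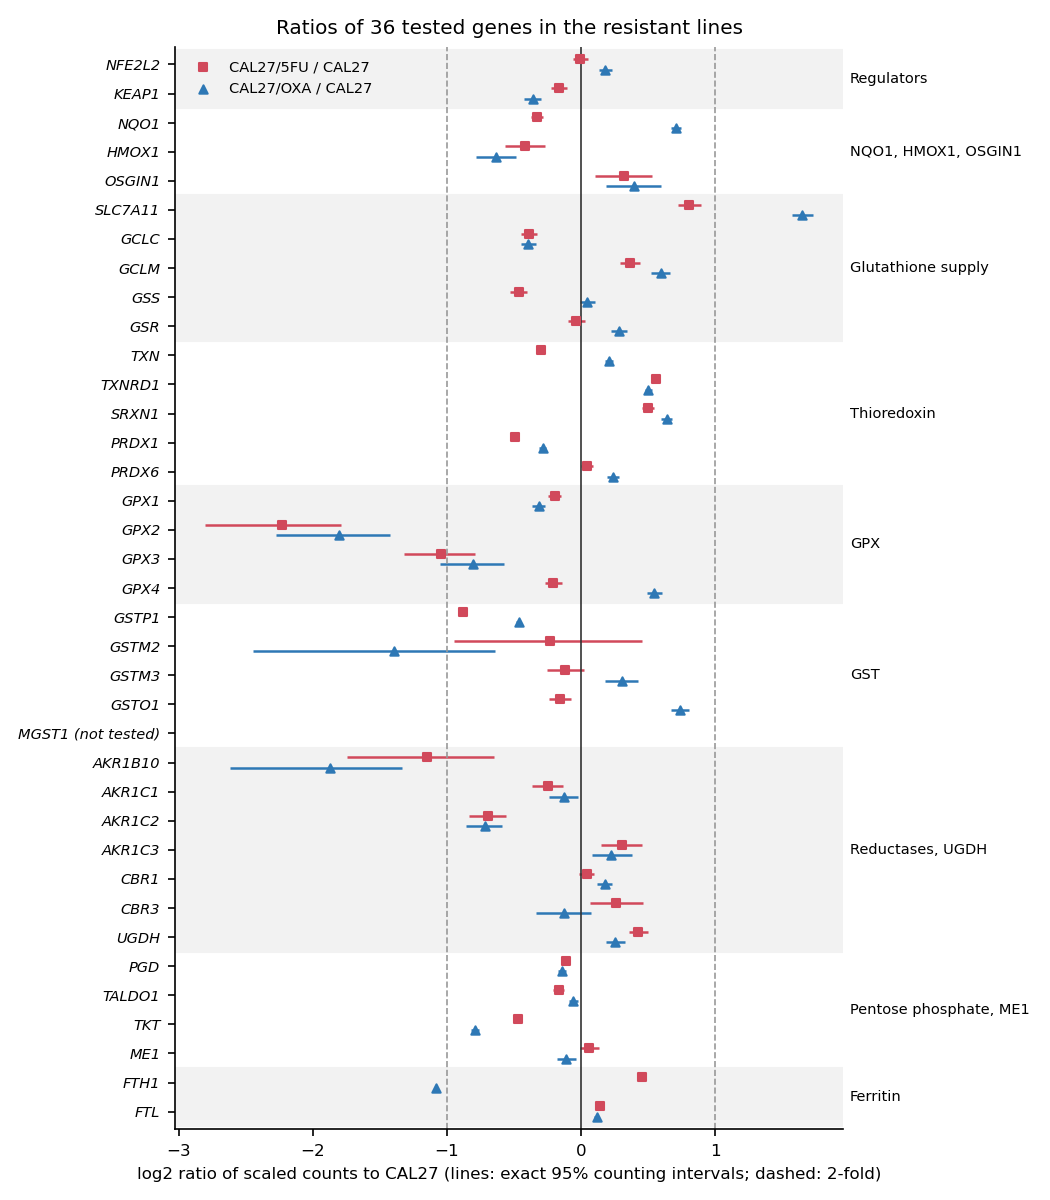
Log2 ratios of the 36 tested genes to CAL27 in CAL27/5FU (squares) and CAL27/OXA (triangles), with exact 95% counting intervals as lines and 2-fold as dashes. SLC7A11 in CAL27/OXA (1.65) is the one point right of the upper dash, and GPX2 in CAL27/5FU (-2.23) is the farthest to the left.

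Glutathione transferases join glutathione to electrophiles, platinum drugs among them. GSTP1 (chromosome 11, 67583595 to 67586656, plus strand) had 58548 counts in the parental line, 31942 in CAL27/5FU and 48387 in CAL27/OXA, or 1503, 816 and 1089 CPM. Its log2 ratios were -0.88 (-0.90 to -0.86) and -0.46 (-0.48 to -0.45), so the lowest level was in CAL27/5FU and the ratio stayed under 2-fold. GSTO1, an omega-class enzyme, had 69.8, 62.7 and 116 CPM, with log2 ratios of -0.16 (-0.23 to -0.08) and 0.74 (0.67 to 0.80). GSTM3 had 23.6, 21.7 and 29.1 CPM. GSTM2 (chromosome 1, 109668022 to 109709551, plus strand) had 40, 34 and 16 counts and fell 2.63-fold in CAL27/OXA, a log2 ratio of -1.39 (-2.45 to -0.64) whose interval included values within 2-fold and which was -0.43 on FPKM values with a pseudocount of 1. Of its 31-base windows, 54.1% also occur in other genes, with GSTM1 (1187, 1203 and 1308 counts) sharing the most, so counts of GSTM2 are uncertain.

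Among the reductases, AKR1B10 (chromosome 7, 134527592 to 134541408, plus strand), an aldo-keto reductase of retinal and lipid aldehydes, had 95 counts in the parental line, 42 in CAL27/5FU and 28 in CAL27/OXA. It fell 2.22-fold in CAL27/5FU, a log2 ratio of -1.15 (-1.74 to -0.65), and 3.66-fold in CAL27/OXA, a log2 ratio of -1.87 (-2.62 to -1.33) that was -0.79 on FPKM values with a pseudocount of 1. The call in CAL27/5FU was lost under total counts and with FPKM values. Of its windows, 35.4% occur in other genes, AKR1B15 foremost. Its 10 nearest tested genes had median log2 ratios of 0.38 and 0.28, with 1 called higher and 1 lower in each resistant line.

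The AKR1C genes, reductases of steroids and prostaglandins, lie side by side on chromosome 10 and resemble each other closely. AKR1C1 had 1343, 1135 and 1400 counts, AKR1C2 had 1117, 693 and 773, and AKR1C3 had 646, 801 and 863. Their log2 ratios to CAL27 in CAL27/5FU were -0.25 (-0.36 to -0.13), -0.69 (-0.83 to -0.56) and 0.30 (0.15 to 0.46). In CAL27/OXA they were -0.13, -0.72 and 0.23, so AKR1C2 was below and AKR1C3 above CAL27 in both. Of the AKR1C2 windows, 62.5% occur in AKR1C1, while 11.9% of the AKR1C3 windows do, so the division of reads between AKR1C1 and AKR1C2 is uncertain. Summed over the 3 genes, the counts were 3106, 2629 and 3036, with log2 ratios of -0.25 (-0.32 to -0.17) and -0.22 (-0.29 to -0.15). The carbonyl reductases CBR1 and CBR3 and the UDP-glucuronate-forming enzyme UGDH were within 2-fold, with UGDH at log2 ratios of 0.43 (0.36 to 0.50) and 0.26 (0.18 to 0.33).

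PGD and ME1 produce NADPH, and TKT and TALDO1 belong to the non-oxidative branch of the pentose phosphate pathway. Of these 4 enzymes, 0 were past 2-fold in either line. TKT, transketolase, had 601 CPM in the parental line, 434 in CAL27/5FU and 348 in CAL27/OXA, with log2 ratios of -0.47 (-0.50 to -0.44) and -0.79 (-0.82 to -0.76). PGD and TALDO1 had log2 ratios between -0.17 and -0.06. ME1, malic enzyme, had 86.5, 90.4 and 80.2 CPM.

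The ferritin chains parted in CAL27/OXA. FTH1 (chromosome 11, 61959718 to 61967660, minus strand) had 183252 counts in the parental line, 252549 in CAL27/5FU and 98849 in CAL27/OXA, or 4704, 6452 and 2225 CPM. Its log2 ratio was 0.46 (0.45 to 0.46) in CAL27/5FU, and it fell 2.11-fold in CAL27/OXA, a log2 ratio of -1.08 (-1.09 to -1.07). The 2-fold call was lost by scaling with total counts and with FPKM values, where the log2 ratio was -0.95. FTL (chromosome 19, 48965301 to 48966878, plus strand) had 1180, 1300 and 1280 CPM, with log2 ratios of 0.14 and 0.12.

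Per length, the level of FTH1 was 2.83 times that of FTL in CAL27, 3.52 times in CAL27/5FU and 1.23 times in CAL27/OXA. Both chains together took 0.549% of all counts in the parental line, 0.814% in CAL27/5FU and 0.358% in CAL27/OXA. Of the 31-base windows, 50.8% in FTH1 and 33.3% in FTL occur in other genes, mostly processed pseudogenes such as FTH1P10 and FTLP3. Exons of FTH1 also overlap BEST1 on the opposite strand, which had 66, 113 and 127 counts in the same order of lines. The 10 nearest tested genes of FTH1 had median log2 ratios of 0.05 and -0.10. Of these, 2 were called higher and 1 lower in CAL27/5FU, and 2 higher and 0 lower in CAL27/OXA. TFRC, the transferrin receptor and no member, is named after its values were seen and had 54831, 28136 and 36320 counts, with log2 ratios of -0.97 (-0.99 to -0.95) and -0.78 (-0.80 to -0.76).

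**Figure D4:**
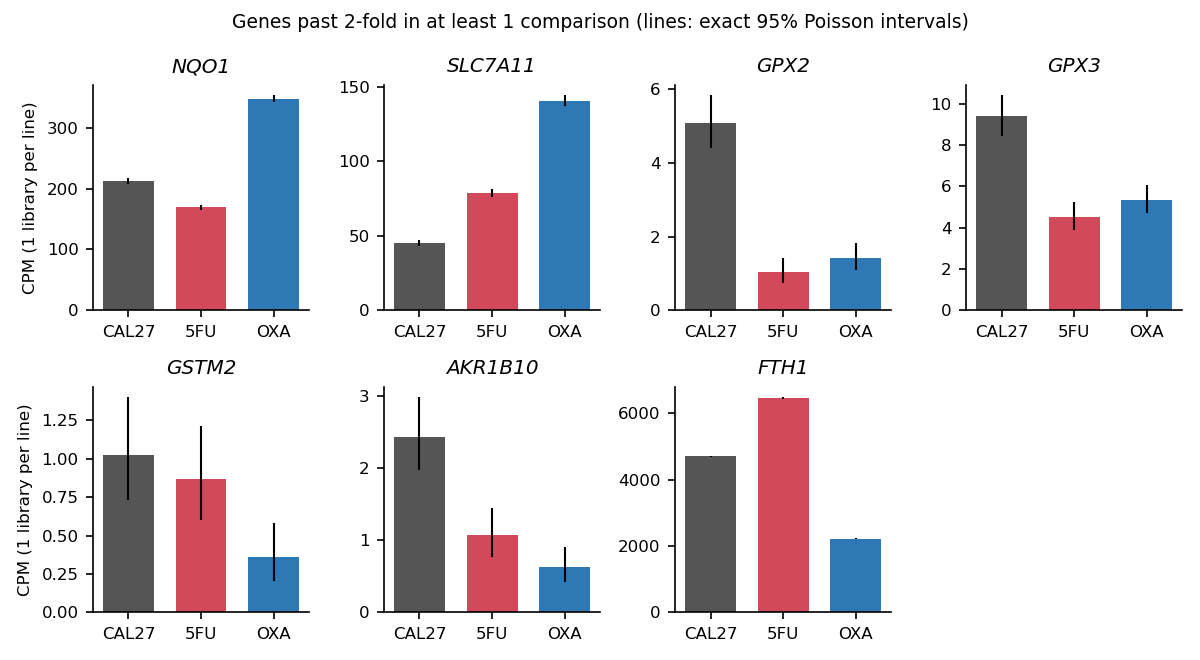
CPM of the 7 members past 2-fold in at least 1 of the 3 pairs of lines, with 1 library per bar and exact 95% Poisson intervals of the counts as lines. GPX2, GPX3 and AKR1B10 are highest in CAL27, SLC7A11 and NQO1 are highest in CAL27/OXA, and FTH1 is highest in CAL27/5FU.

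Set directly against CAL27/5FU, CAL27/OXA had 1 of the 36 members higher, NQO1, and 2 lower, FTH1 and GSTM2. Over all tested genes, 4.18% were higher and 8.38% lower in this comparison. FTH1 was 2.90-fold lower, a log2 ratio of -1.54 (-1.55 to -1.53). GSTM2 was 2.24-fold lower, with an interval from -2.23 to -0.37. Below 2-fold, GSTO1 (0.89, 0.82 to 0.96), SLC7A11 (0.84, 0.78 to 0.91) and GPX4 (0.75, 0.70 to 0.81) had the next largest positive log2 ratios. The median of the members was 0.12, beside 0.0079 for all tested genes.

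A further 87 genes of the same pathways were counted for context, of which 80 had a mean of at least 10 counts. In CAL27/5FU 3 (3.75%) were called higher and 2 (2.5%) lower, against 8.46% and 6.72% of all tested genes. In CAL27/OXA 2 (2.5%) were called higher and 4 (5%) lower, against 6.54% and 9.28%. The medians were -0.11 and -0.07. NFE2L3, an NRF2-related factor, rose in CAL27/5FU from 1989 to 5426 counts (log2 ratio 1.44) and had 3679 in CAL27/OXA (0.70). ABCC3, a transporter of glutathione and glucuronide conjugates, rose from 2344 to 7569 counts in CAL27/5FU (1.68) and had 2276 in CAL27/OXA (-0.23). TRIM16 fell in CAL27/5FU from 6026 to 2127 counts (-1.51) and had 3652 in CAL27/OXA (-0.91). ME3, a mitochondrial malic enzyme, rose from 80 to 379 counts in CAL27/5FU (2.21) and had 121 in CAL27/OXA (0.40).

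In CAL27/OXA the 6 calls of this wider list were CHAC1, CHAC2, OPLAH, SLC3A2, PRDX2 and GSTZ1. CHAC1 and CHAC2, which break glutathione down, rose with log2 ratios of 1.08 (0.86 to 1.32) and 1.06 (0.88 to 1.26), beside 0.92 and 0.60 in CAL27/5FU. OPLAH, 5-oxoprolinase, which returns glutamate to the cycle, had 1566 counts in CAL27 and 563 here, and fell with a log2 ratio of -1.66 (-1.81 to -1.53), beside -0.91 in CAL27/5FU. SLC3A2, the heavy chain that partners SLC7A11, had 34317 counts in CAL27 and 18470 here. It fell with a log2 ratio of -1.08 (-1.11 to -1.06), and its ratio in CAL27/5FU was -0.62. Per length, the level of SLC3A2 was 86.4 times that of SLC7A11 in the parental line, 32.1 times in CAL27/5FU and 13.0 times in CAL27/OXA. PRDX2, a cytosolic peroxiredoxin, fell from 2348 to 1075 counts in CAL27/OXA (-1.31) and had 2368 in CAL27/5FU. GSTZ1, a transferase of tyrosine breakdown, fell in CAL27/OXA with a log2 ratio of -1.11 (-1.28 to -0.94), beside -0.57 in CAL27/5FU. The calls of SLC3A2 and GSTZ1 were lost under total counts and with FPKM values, where the ratios nearest 0 were -0.95 and -0.89.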

How the data were processed

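RNA of CAL27, CAL27/5FU and CAL27/OXA cells was made into libraries with a NEBNext Ultra RNA kit, and the submitters' processing notes name CASAVA 1.8, HISAT2 2.0.5 and GRCh38. The counting tool, annotation and strandedness are not given in the sources used here. The authors deposited raw read counts per gene symbol (19220 genes) and FPKM values (19225 genes). For 100% of 14367 genes, count, FPKM and total gave a single length within 0.1%. Each of these files also holds 3 columns of per-sample values that match no labelled sample. They are named as a second column for each line. They were left out, and the limit to 1 library per line follows from that.

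Counts were scaled by TMM over the 3 libraries (edgeR 4.0.16, R 4.3.3) and expressed as log2 CPM (prior count 2). A gene was tested where its counts averaged 10 or more (13676 genes). Ratios and intervals were run on simulated Poisson counts with known changes. These hold counting error only and no spread between cultures, so they check the computation alone. Positions and exon overlaps are from GENCODE 29 (GRCh38). Shared windows are exact 31-base matches of the longest coding transcript in transcripts of other genes. Named were all members and, of the 87 other pathway genes, those past 2-fold against CAL27 whose counts averaged 100 or more. TFRC lies outside this rule. The list of blood cell markers is not reported here as a whole. The members, lists and rules were chosen with earlier results of these data known. Alternatives were DESeq2 1.42.0 size factors, total counts, upper quartile, TMM per pair, other filters, prior counts, FPKM and thresholds.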

Additional observations from a re-analysis of the deposited data

Results flagged for a closer look

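No member had ratios to CAL27 of opposite sign that were both past 1.5-fold (0 genes). With a looser rule, set after the values were seen, 5 members had counting intervals on opposite sides of 0 in the resistant lines, and in no case was the difference between the lines tested, since 1 labelled library per line was used. NQO1 had a log2 ratio of -0.33 in CAL27/5FU and 0.71 in CAL27/OXA. TXN had -0.30 and 0.21. GPX4 had -0.21 and 0.55, and the former shrank to -0.03 under scaling by total counts. GSTO1 had -0.16 and 0.74, and the former became positive under scaling by total counts. FTH1 had 0.46 and -1.08, the reverse order of the other 4.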

How the results depend on the processing

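No paired analysis was possible because 1 labelled library per line was used, and leaving out a replicate was not possible for the same reason. The values rest on 1 library per line and counting intervals, so low genes such as GSTM2, AKR1B10 and GPX2 are the least precise. Of 36 tested members, 29 kept the sign of their ratio under every alternative run in CAL27/5FU, 32 in CAL27/OXA and 36 in CAL27/OXA against CAL27/5FU. GPX2 stayed past 2-fold in both lines, SLC7A11 in CAL27/OXA, and FTH1 in CAL27/OXA against CAL27/5FU, under all 11 scalings, filters, prior counts and FPKM settings. The 3 members lower in CAL27/5FU became 1 at 4-fold, where the whole interval had to pass 2-fold, under total counts, and with FPKM at a pseudocount of 1 or 0.1 or with a mean of at least 1. In CAL27/OXA the 4 lower members became 0 at 4-fold, and 1 with FPKM at a pseudocount of 1, with or without that filter. Without the 8 members that share over 20% of their windows, an alternative chosen after seeing the data, 1 was lower. The 1 higher member became 0 at 4-fold. Between the resistant lines, the 1 higher member became 0 at 4-fold, with the whole interval and with all FPKM settings. The 2 lower became 0 at 4-fold and without the sharing members, and 1 with the whole interval, a mean of at least 50 counts, and FPKM at a pseudocount of 1 with or without the filter.

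The median of the members moved from -0.16 in CAL27/5FU to 0.0111 under total counts and 0.0109, 0.0111 and 0.0306 with FPKM (pseudocount 1, 0.1, and 1 with the filter), and in CAL27/OXA from -0.0044 to 0.1286, and to 0.1268, 0.1284 and 0.2134, and to 0.1802 without the sharing members. Total counts moved the median of all genes with it, so the members' median minus that of all genes was -0.16 under either scaling in CAL27/5FU. With FPKM at a pseudocount of 1, with or without the filter, this difference was -0.11. In CAL27/OXA it was -0.0099 in the main setting. There it ran from -0.0556 with no filter to 0.0884 with FPKM at a pseudocount of 1 and the filter, so its sign was not stable. Of the other pathway genes, the 3 higher in CAL27/5FU became 6 under total counts and 5 with FPKM at a pseudocount of 0.1. The 2 lower became 1 under total counts, the upper quartile, a mean of at least 50 counts, a prior count of 5 and all FPKM settings. In CAL27/OXA the 4 lower became 2 under total counts and all FPKM settings. Between the resistant lines the 1 higher became 3 with no filter, and 0 with a mean of at least 50 counts and with FPKM at a pseudocount of 1, with or without the filter. Unless an alternative's own construction gives it, the cause was not tested.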
